A study of Homo sapiens with 21 samples.

Results

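Replication-dependent histone genes were followed in tumours grown from the bladder carcinoma line HT1376 (human), after treatment with inhibitors of PRC2. The set was chosen by name, as the protein-coding histone genes of the clusters (H1-1 to H1-6, H2AC, H2BC, H3C and H4C genes), and held 69 of the 57500 genes counted. It had 6 genes of the H1 family, 17 of H2A, 18 of H2B, 13 of H3 and 15 of H4, with 55 on chromosome 6, 13 on chromosome 1 and 1, H4C16, on chromosome 12. RNA of 21 libraries was sequenced in 7 groups of 3, namely CPI-0209, valemetostat, MAK683, PF-06821497, CPI-1205, tazemetostat and vehicle. Each compound was dosed orally once a day at 75 mg/kg, and all tumours were taken 1 hour after a dose on day 15. All groups shared 1 cell line, implanted under the skin of female CB17 SCID mice, which lack T and B lymphocytes but keep other host cells. The labels do not state that the libraries of a group came from separate animals, so the p-values reflect differences among these libraries only, and their spread may be technical.

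Replication-dependent histones package DNA as it is copied, and their genes are switched on together as cells enter S phase. Their mRNAs are unusual in ending with a short stem-loop in place of a poly(A) tail. The stem-loop is bound by SLBP, which guides processing, translation and decay of the message. NPAT drives transcription of the clusters, and many H2A and H2B genes stand head to head across a shared promoter. PRC2 places the repressive methyl mark on lysine 27 of histone H3 through EZH2 or EZH1. Tazemetostat, PF-06821497, CPI-1205, valemetostat and CPI-0209 are known as inhibitors of its catalytic subunit, and MAK683 binds the EED subunit. The labelled library kit selects poly(A) RNA, and the counts do not separate polyadenylated histone RNA from RNA carried along.

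The sequence that defines the class was looked for in the transcripts of the gene models, since it shows which models reach the processed end of the histone message. A stem-loop of 16 bases, with arms of 6 bases and a loop of 4, was found in the models of 31 members. The models of the other 38 held none, and 34 of these had a length that is a multiple of 3 and so probably cover only the coding part. The forms found are listed here as DNA letters from the GENCODE 29 transcripts, with the loop in capitals.
Stem-loop of 17 members, among them H2AC6, H2AC25, H2BC8 and H3C10: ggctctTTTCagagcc
Stem-loop of H4C2, H4C5, H4C8, H4C11 and H4C16: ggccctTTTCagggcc
Stem-loop of H4C9, H4C14 and H4C15: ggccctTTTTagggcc
Stem-loop of H2BC4, H2BC5, H2BC7 and H3C8: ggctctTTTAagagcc
Stem-loop of H3C6: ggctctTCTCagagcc
Stem-loop of H2AC11: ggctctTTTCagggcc

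Promoters of the members that the results turn on are shown because they differ in the elements that histone genes are known for. RefSeq (GRCh38.p14) held 300 bases around the start, 250 before and 50 after, for 64 of the 69 members. Capitals mark the TATA box (TATAAA), the CCAAT box, the octamer (ATTTGCAT) and the H1 box (AAACACA), each on either strand. H1-2 encodes a linker histone, which binds DNA where it enters and leaves the nucleosome, and its promoter lies at chr6:26056421-26056720 on the minus strand.
H1-2 promoter: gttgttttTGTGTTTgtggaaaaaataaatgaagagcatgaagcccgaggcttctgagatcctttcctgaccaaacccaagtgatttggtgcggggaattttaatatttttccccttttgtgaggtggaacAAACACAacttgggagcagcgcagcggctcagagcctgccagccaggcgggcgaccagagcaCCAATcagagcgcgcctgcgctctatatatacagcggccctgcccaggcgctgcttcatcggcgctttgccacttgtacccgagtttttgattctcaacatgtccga
The H2BC11 promoter at chr6:27132746-27133045 on the minus strand spans the gap to H2AC11, whose start lies 292 bases away on the other strand.
H2BC11 promoter: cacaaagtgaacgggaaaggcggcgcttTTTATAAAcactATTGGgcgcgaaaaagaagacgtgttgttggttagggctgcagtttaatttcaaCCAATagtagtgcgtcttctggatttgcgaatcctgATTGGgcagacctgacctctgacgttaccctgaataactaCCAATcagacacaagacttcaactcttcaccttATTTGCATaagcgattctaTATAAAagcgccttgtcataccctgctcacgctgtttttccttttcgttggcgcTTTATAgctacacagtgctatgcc
The H2AC25 promoter at chr1:228457824-228458123 on the minus strand likewise spans the gap of 234 bases to H2BC26.
H2AC25 promoter: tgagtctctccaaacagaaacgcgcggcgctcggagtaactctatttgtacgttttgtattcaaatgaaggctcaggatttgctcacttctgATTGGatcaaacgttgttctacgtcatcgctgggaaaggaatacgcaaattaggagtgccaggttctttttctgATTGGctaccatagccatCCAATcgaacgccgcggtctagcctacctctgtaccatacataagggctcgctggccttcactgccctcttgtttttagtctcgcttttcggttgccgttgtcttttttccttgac
The H4C5 promoter at chr6:26204360-26204659 on the plus strand held none of these motifs.
H4C5 promoter: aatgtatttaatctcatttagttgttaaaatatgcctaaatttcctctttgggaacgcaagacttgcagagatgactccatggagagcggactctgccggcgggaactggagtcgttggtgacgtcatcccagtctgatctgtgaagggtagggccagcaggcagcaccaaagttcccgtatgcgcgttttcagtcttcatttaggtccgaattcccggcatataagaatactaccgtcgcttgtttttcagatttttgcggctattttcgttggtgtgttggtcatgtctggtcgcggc
TATAAA was present in 65.6% of the 64 member promoters, against 11.95% of 27305 promoters of all genes in the same table. CCAAT was present in 84.4% of member promoters, against 35.7% of all. All 6 H1, 16 H2A, 18 H2B and 11 H3 promoters held it, and 3 of 13 H4 promoters did. The window that RefSeq gives for H3C4 is that of H2AC7, so it is counted under both H2A and H3. The octamer, the binding site of POU2F1 (Oct-1), was present in 40.6% of member promoters, in 11 of 16 of H2A and 14 of 18 of H2B, against 1.80% of all promoters. The H1 box stood in 6 of 6 H1 promoters, and in 14.1% of member promoters against 5.76% of all. These matches describe letters in a window and say nothing about binding in these tumours.

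Member counts were low and uneven. The 69 genes took 8339 to 17294 counts per library, or 0.0372% to 0.104% of library totals that ran from 9725690 to 25771778. CPI-0209 libraries had totals of 16819167, 16583137 and 9725690, all below the vehicle totals of 23259170, 25059827 and 22371908. Levels are given as CPM (counts scaled to a common library size), and between genes as CPM per kilobase of gene model. H2BC12 was highest by length, at 364 ± 91.9 CPM per kilobase in CPI-0209 tumours and 179 ± 22.9 in vehicle tumours (SD, n = 3 each). H1-2 followed, at 261 ± 74.3 in CPI-0209 tumours and 59.8 ± 7.95 in vehicle tumours. H2BC12 and H1-2 took 16.1% and 13.99% of all member CPM, and the 11 highest members took 80.0%. The models of both leading genes hold no stem-loop and cover their coding part only, so their reads beyond it were not counted. Low counts kept 26 members out of the tests, 2 of them (H2AC15 and H3C4) with no count in any library. A gene with 0 counts could stand at up to 0.287 CPM in the smallest library, from 3 counts, and this floor covers counting error only.

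**Figure D1:**
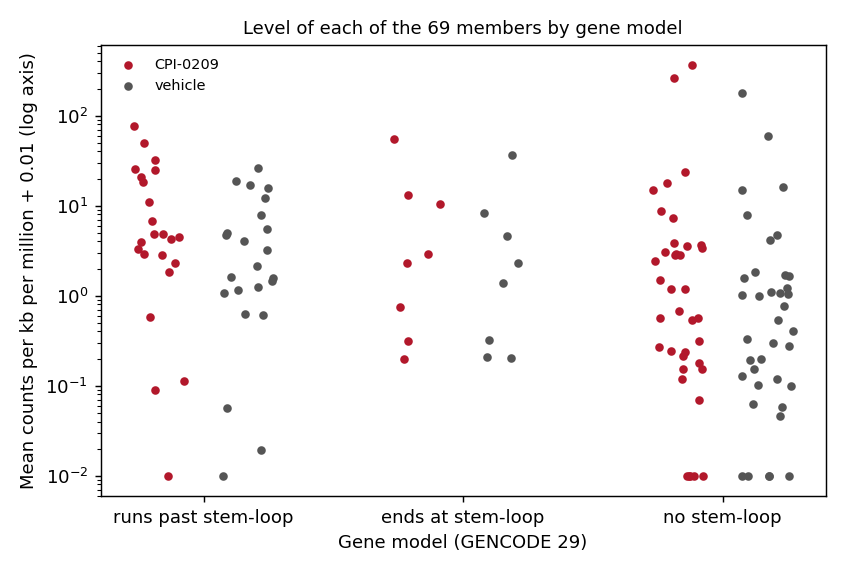
Mean level of each of the 69 members in CPI-0209 tumours (red) and vehicle tumours (grey), as CPM per kilobase of gene model plus 0.01 on a log axis, split by whether the model runs past the stem-loop by over 100 bases (23 members), ends at it (8) or holds none (38). Levels spread widely within each kind of model, and the 2 highest, H2BC12 and H1-2, have no stem-loop in the model.

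Histone genes rose in CPI-0209 tumours in all 5 families. Of the 43 members tested, 27 rose and 0 fell (edgeR quasi-likelihood test, Benjamini-Hochberg adjusted p under 0.05), while 22.3% of all 21958 genes tested rose and 18.8% fell. The median log2 fold change of the tested members was 1.03, against -0.02 for all genes tested. In bulk RNA, a change in the number of cells that express a gene and a change in RNA per cell cannot be told apart. In 33 of the 43 all 3 CPI-0209 libraries lay above all 3 vehicle libraries, which was so for 27.5% of all genes tested. Members passed the filter on low counts through any group, and 37 of the 43 had at least 10 counts in every vehicle library. Without CPI-0209 library 3, which stood apart in muscle RNA as given below, 24 members rose.

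Summed over all 69 members, CPI-0209 libraries held 721, 994 and 962 CPM, against 392, 437 and 388 CPM in vehicle libraries. The sums of the other groups were 603, 518 and 674 CPM for valemetostat, 519.7, 563 and 518 CPM for MAK683 and 565, 571 and 488 CPM for PF-06821497. CPI-1205 libraries held 551, 426 and 458 CPM and tazemetostat libraries 453, 434 and 473 CPM. All CPI-0209 libraries lay above every other library, all valemetostat, MAK683 and PF-06821497 libraries lay above all vehicle libraries, and CPI-1205 and tazemetostat libraries overlapped with vehicle. The mean of the sums relative to vehicle was 2.20 for CPI-0209, 1.48 for valemetostat, 1.32 for MAK683, 1.33 for PF-06821497, 1.18 for CPI-1205 and 1.12 for tazemetostat. Divided by gene length, these ratios were 2.298, 1.53, 1.33, 1.36, 1.14 and 1.09 in the same order. No p-value is given for a sum over chosen genes.

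**Figure D2:**
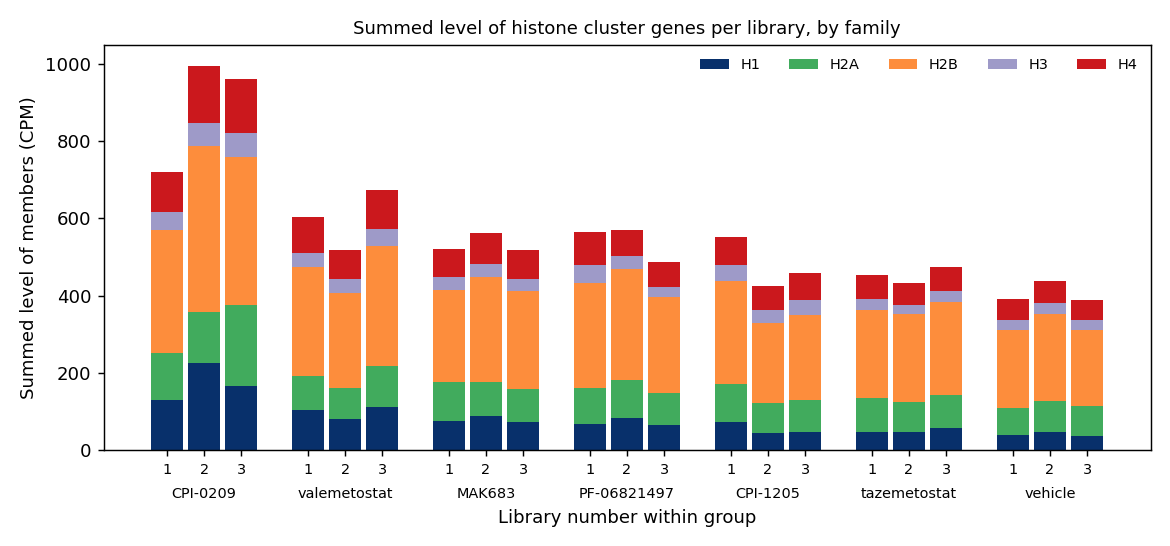
Summed CPM of the 69 members in each library, stacked by family (H1, H2A, H2B, H3 and H4), with compounds left and vehicle right. The 3 CPI-0209 libraries reach 721 to 994 CPM, and the vehicle libraries reach 388 to 437 CPM.

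Among linker histones, H1-2 stood out by both level and change. It had 124, 218 and 160.0 CPM in CPI-0209 libraries, against 36.8, 44.1 and 34.2 CPM in vehicle libraries. The groups did not overlap, and the log2 fold change was 2.13 ± 0.21 (SE; edgeR adjusted p = 7.32e-08). It had 101, 78.6 and 106 CPM with valemetostat, 71.2, 86.1 and 68.1 CPM with MAK683 and 65.02, 79.2 and 62.1 CPM with PF-06821497, and rose in all 3. It had 70.1, 42.9 and 45.2 CPM with CPI-1205 and 45.5, 42.95 and 56.4 CPM with tazemetostat. Those values did not pass the test. H1-2 made up 18.6% of the summed member CPM in CPI-0209 tumours and 9.43% in vehicle tumours. Without it the sum in CPI-0209 tumours was 725 ± 111 CPM, against 367 ± 22.2 CPM in vehicle tumours (SD, n = 3 each). H1-4 and H1-5, also linker histones, also rose with CPI-0209, at lower CPM. H1-4 had 2.17, 1.90 and 2.29 CPM in CPI-0209 libraries and 0.724, 0.965 and 0.559 CPM in vehicle libraries. H1-5 had 2.17, 2.93 and 2.20 CPM in CPI-0209 libraries and 0.498, 0.545 and 1.07 CPM in vehicle libraries. H1-3 and H1-6 (H1-6 is a testis linker histone) had log2 values of 0.96 and 1.13 and did not pass, and H1-1 was too low to test.

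Of the H2A genes, whose proteins pair with H2B in the nucleosome, 5 of 8 tested rose with CPI-0209. H2AC25, named here after its values were seen, had 40.9, 45.98 and 121 CPM in CPI-0209 libraries, against 13.99, 14.4 and 14.1 CPM in vehicle libraries. Its log2 fold change was 2.28 ± 0.34 (SE; edgeR adjusted p = 2.67e-05), and library 3 stood far above the other 2. Without that library the value was 1.61, and with the muscle markers as a covariate it was 1.68, with adjusted p of 2.79e-05 and 7.13e-04. H2AC25 encodes an H2A protein from a small cluster on chromosome 1. H2AC6, the H2A gene with the highest level by length over all libraries, differed little. It had 51.3, 57.8 and 52.6 CPM in CPI-0209 libraries, against 40.9, 48.3 and 42.7 CPM in vehicle libraries. The log2 fold change was 0.29 ± 0.13 and missed the threshold (edgeR adjusted p = 0.0752), although under 7 of 17 alternatives it passed, with adjusted p over all of them from 0.0117 to 0.242. The remaining members that rose were H2AC16, H2AC8, H2AC20 and H2AC17, with log2 values of 2.11, 1.17, 1.15 and 0.91. H2AC16 was low, at 1.73, 2.76 and 4.01 CPM in CPI-0209 libraries and 0.407, 0.629 and 0.885 CPM in vehicle libraries. H2AC20 had 1.00, 1.03 and 2.20 CPM in CPI-0209 libraries and 0.453, 0.671 and 0.699 CPM in vehicle libraries. In both, CPI-0209 library 3 was the highest. No H2A gene passed in any other comparison with vehicle.

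Of the H2B genes, the family with the most members tested, 9 of 14 rose with CPI-0209. The median log2 fold change was 0.78 for H2B, 1.48 for H1, 1.03 for H2A, 1.06 for H3 and 1.41 for H4. H2BC11, a gene of the large cluster on chromosome 6, had 19.01, 26.1 and 21.9 CPM in CPI-0209 libraries, against 7.02, 7.34 and 7.92 CPM in vehicle libraries. Its log2 fold change of 1.59 ± 0.15 had the smallest adjusted p of any member (edgeR, 4.01e-08). The values were 15.9, 13.7 and 16.8 CPM with valemetostat, 12.4, 12.9 and 14.8 CPM with MAK683 and 13.5, 12.1 and 12.05 CPM with PF-06821497, all above every vehicle library and past the test. They were 9.67, 7.22 and 7.25 CPM with CPI-1205 and 7.67, 8.37 and 8.67 CPM with tazemetostat, which overlapped with vehicle. H2BC8, another replication-dependent H2B gene, had 21.5, 32.2 and 30.00 CPM in CPI-0209 libraries, against 9.14, 8.81 and 7.59 CPM in vehicle libraries. For H2BC8 the log2 fold change was 1.71 ± 0.19. H2BC6 rose by 1.86 ± 0.28 on the log2 scale with CPI-0209, with 7.58, 8.28 and 14.6 CPM there and 2.81, 2.35 and 3.17 CPM in vehicle libraries. Part of its model lies opposite another gene (28.2% of its exon bases), and without a stated strand setting their reads cannot be told apart.

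6 members have reported polyadenylated transcripts (H1-2, H2AC6, H2BC4, H2BC5, H2BC12 and H2BC21), and 5 of them rose with CPI-0209. H2BC12 had 115, 179 and 121 CPM in CPI-0209 libraries, against 67.1, 77.3 and 59.9 CPM in vehicle libraries, a log2 fold change of 1.03 ± 0.17. The groups did not overlap, and part of its sequence also occurs in H2BFS, so reads could be split between them. H2BC4 had 8.64, 9.54 and 9.36 CPM in CPI-0209 libraries, against 3.71, 4.15 and 4.05 CPM in vehicle libraries (1.21 ± 0.17). H2BC5 had 44.4, 53.8 and 47.1 CPM in CPI-0209 libraries, against 31.1, 35.2 and 29.4 CPM in vehicle libraries (0.60 ± 0.15). H2BC21, a gene of the chromosome 1 cluster, had 42.1, 58.96 and 61.5 CPM in CPI-0209 libraries, against 33.00, 41.5 and 37.3 CPM in vehicle libraries. Its log2 fold change of 0.54 ± 0.17 passed (edgeR adjusted p = 0.0146) but lost that call when CPI-0209 library 2, CPI-0209 library 3 or vehicle library 1 was left out, with an adjusted p of 0.0651, 0.0749 and 0.0753. H2BC18 (0.97) and H2BC7 (1.02) were the remaining H2B genes that rose with CPI-0209, and for H2BC7 the groups overlapped. The median log2 fold change of the 6 with reported polyadenylated transcripts was 0.81, against 1.03 over all 43 tested members. H2BC9 rose with valemetostat (0.57) and PF-06821497 (0.84), and its value with CPI-0209 was 0.44 (edgeR adjusted p = 0.0569).

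H3 and H4 form the tetramer at the core of the nucleosome, and lysine 27 of H3 is the residue that PRC2 modifies. Of the H3 genes, 5 of 7 tested rose with CPI-0209. H3C10 led the family by length and had 26.03, 35.6 and 33.5 CPM in CPI-0209 libraries, against 15.8, 15.4 and 13.3 CPM in vehicle libraries. The log2 fold change of H3C10 was 1.09 ± 0.17 (edgeR adjusted p = 3.59e-05). H3C6, H3C8, H3C12 and H3C13 also rose, with log2 values of 1.32, 1.06, 0.90 and 1.41. The H3C12 model overlaps that of H2AC17, so these 2 calls may share reads.

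Of the H4 genes, 5 of 9 tested rose with CPI-0209. H4C9 had 49.9, 75.6 and 66.6 CPM in CPI-0209 libraries, against 26.6, 24.9 and 20.7 CPM in vehicle libraries. The fitted log2 value of H4C9 was 1.41 ± 0.17. H4C8 had 35.1, 49.4 and 51.4 CPM in CPI-0209 libraries, against 16.98, 16.95 and 16.8 CPM in vehicle libraries. H4C5, whose promoter holds none of the motifs searched, had 6.08, 7.76 and 7.45 CPM in CPI-0209 libraries, against 2.67, 2.06 and 2.28 CPM in vehicle libraries. The log2 fold changes were 1.42 ± 0.15 for H4C8 and 1.60 ± 0.19 for H4C5, and for neither gene did the groups overlap. H4C14 rose by 1.93 on the log2 scale but is nearly identical to H4C15, which was too low to test, so its reads could be split between them. H4C4 rose at a low level (1.60). H4C3, H4C12 and H4C16, the H4 gene outside the large clusters, were the only tested members below 0 with CPI-0209. Their log2 values were -0.12, -0.09 and -0.19, and none of the 3 passed. Every stretch of 100 bases in the H4C12 model also occurs in another gene, above all H4C11, so its reads could be split.

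**Figure D3:**
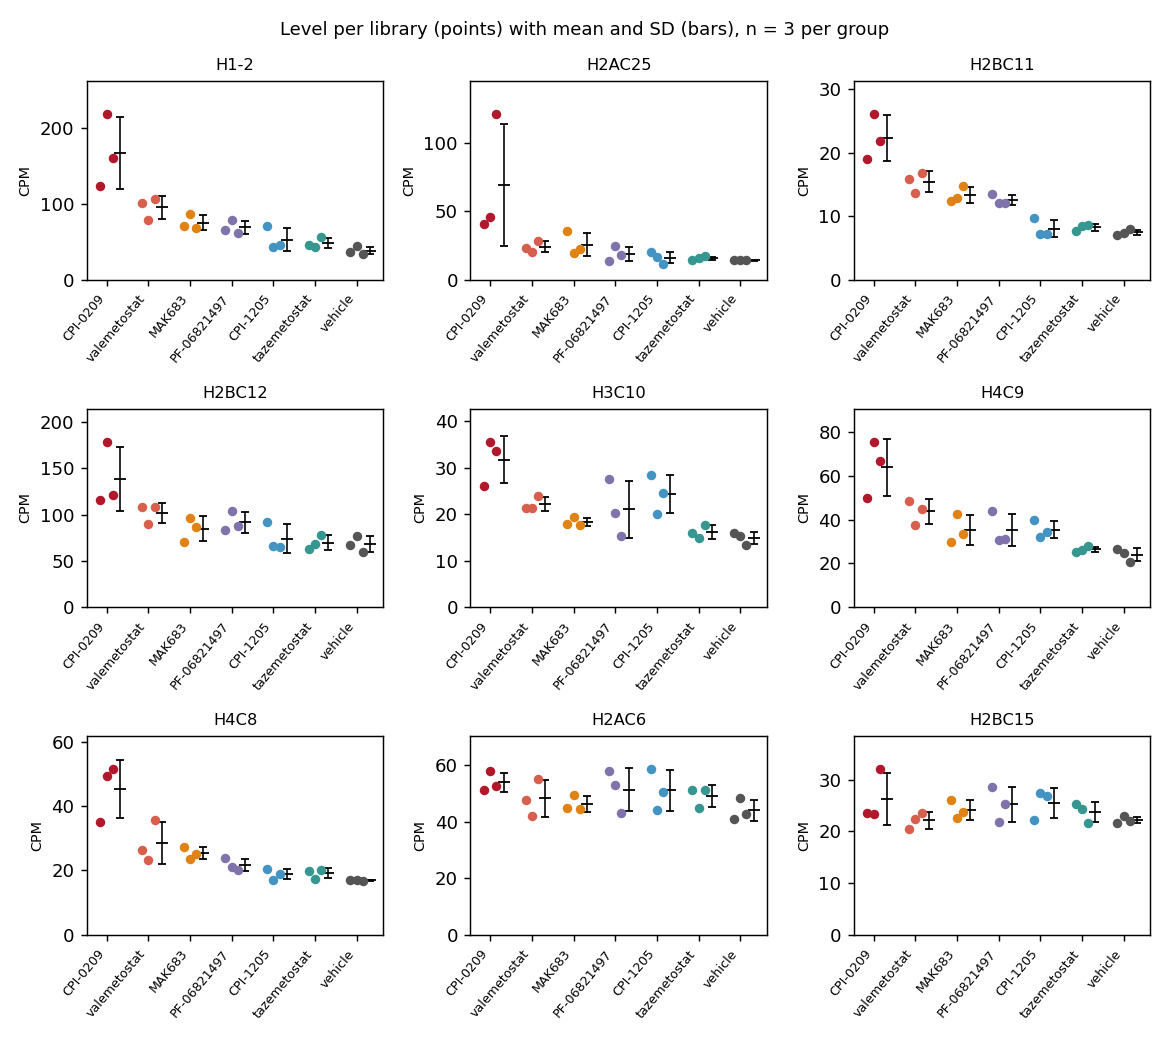
CPM of 9 members in each library, with the mean and SD (n = 3) beside the points, compounds left and vehicle right. H1-2, H2BC11, H2BC12, H3C10, H4C8 and H4C9 lie higher in CPI-0209 libraries than in vehicle libraries, H2AC25 has 1 CPI-0209 library far above the others at 121 CPM, and H2AC6 and H2BC15 (log2 fold changes 0.29 and 0.24) did not pass the test.

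With valemetostat, 16 members rose and 0 fell, while 15% of all genes tested rose and 12.2% fell, and the median log2 fold change was 0.49, against -0.01 for all genes. H1-2 rose by 1.31 ± 0.20 on the log2 scale, and H2BC8, H2BC11 and H4C5 by 1.08, 1.06 and 1.00. H4C9 had 48.7, 37.7 and 44.8 CPM with valemetostat, against 26.6, 24.9 and 20.7 CPM in vehicle libraries. Without vehicle library 3 the number that rose was 8, and without valemetostat library 3 it was 10. Without vehicle library 3 the calls of H2BC12 (0.58), H2BC4 (0.51) and H3C10 (0.58) were lost. That of H2BC12 was also lost without valemetostat library 1, that of H3C10 without valemetostat library 3, and that of H2BC4 without valemetostat library 3 or vehicle library 1 or 2.

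With MAK683, 8 members rose and 0 fell, while 10.4% of all genes tested rose and 5.17% fell, and the median was 0.36, against -0.01 for all genes. They were H1-2 (0.97), H2BC4 (0.74), H2BC8 (0.90), H2BC11 (0.85), H4C5 (0.66), H4C8 (0.59), H4C9 (0.55) and H4C14 (1.09). Without vehicle library 3 the number was 5. H4C5, H4C9 and H4C14 did not pass without vehicle library 2 or 3. H4C5 was also lost without MAK683 library 1 or 2, H4C14 without MAK683 library 1 and H4C9 without MAK683 library 2.

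With PF-06821497, 6 members rose and 0 fell, while 5.96% of all genes tested rose and 3.59% fell, and the median was 0.36, against 0.01 for all genes. They were H1-2 (0.84), H2BC9 (0.84), H2BC11 (0.76), H4C5 (0.65), H4C9 (0.55) and H4C14 (1.16). The number rested on single libraries, at 3 without vehicle library 2, 2 without vehicle library 3 and 10 without PF-06821497 library 3. H4C5, H4C9 and H4C14 did not pass without vehicle library 2 or 3 or PF-06821497 library 1, and H4C9 also without vehicle library 1. H1-2 was lost without vehicle library 3 or PF-06821497 library 2, and H4C5 without PF-06821497 library 2.

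CPI-1205 and tazemetostat each gave 0 members past the edgeR test in either direction, and 0% of all genes tested. At an unadjusted p under 0.05 there were 6 members of 43 with CPI-1205 and 4 with tazemetostat, beside 2713 and 647 of all 21958 genes. DESeq2 called 1 member higher with CPI-1205 and 0 with tazemetostat, while 22 and 6 of all genes passed in either direction. H3C10 had 28.3, 20.1 and 24.6 CPM in CPI-1205 libraries, against 15.8, 15.4 and 13.3 CPM in vehicle libraries. Its log2 fold change was 0.71 (95% interval 0.35 to 1.07) and did not pass (edgeR adjusted p = 0.279). H1-2 had a log2 fold change of 0.33 with tazemetostat and of 0.46 with CPI-1205. The median over the tested members was 0.12 in each.

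**Figure D4:**
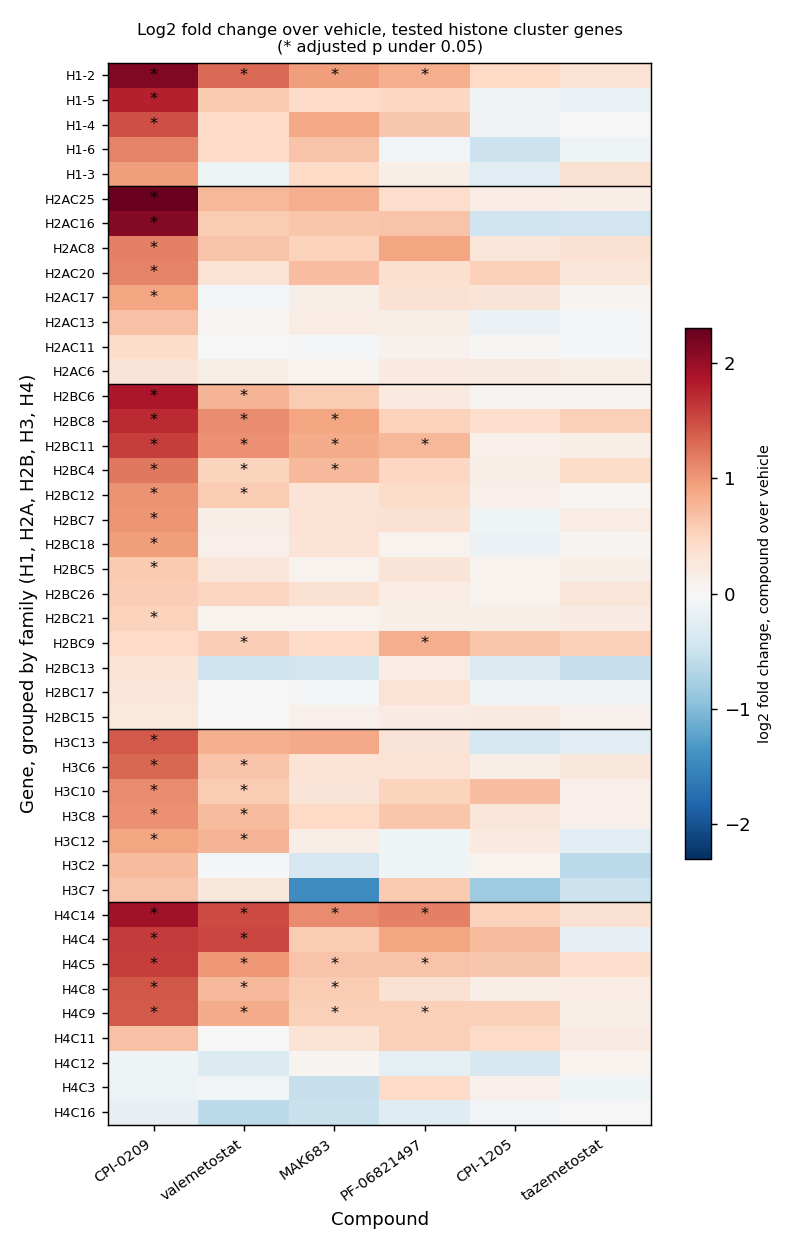
Log2 fold change over vehicle (colour) of the 43 tested members (rows, by family, each sorted by CPI-0209) for 6 compounds (columns), with * where the edgeR adjusted p was under 0.05. The CPI-0209 column holds 27 marks, valemetostat 16, MAK683 8, PF-06821497 6, and CPI-1205 and tazemetostat 0, all of them for higher values.

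The compounds were also compared with each other, at 1 dose and 1 time, which avoids the shared vehicle libraries. In the test of all 6 at once, 22 of the 43 members differed (edgeR, adjusted p under 0.05), while 32.3% of all genes did. All 15 pairs were then tested, with p-values adjusted over all genes within each pair, and pairs that name the same compound share its libraries. CPI-0209 exceeded tazemetostat in 26 members and CPI-1205 in 27, while 20.3% and 19.9% of all genes were higher in those pairs. It exceeded PF-06821497 in 17 members and MAK683 in 16, while 13.9% and 5.05% of all genes were higher. Over MAK683 the log2 difference of H1-2 was 1.16 (edgeR adjusted p = 0.00139) and that of H4C8 was 0.83 (edgeR adjusted p = 0.00192). CPI-0209 over valemetostat gave 0 members and 0% of all genes by edgeR, with 25 members and 2708 genes at an unadjusted p under 0.05. For H1-2 that difference was 0.82 on the log2 scale, with a 95% interval of 0.40 to 1.23, and for H2BC11 it was 0.53, with 0.24 to 0.83.

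Valemetostat exceeded tazemetostat in 10 members and CPI-1205 in 6, while 11.6% and 12.9% of all genes were higher. H2BC11 led both, with log2 differences of 0.91 and 0.94. MAK683 exceeded CPI-1205 in 4 members (H2BC11, H2BC4, H3C13 and H1-4) and tazemetostat in 2 (H2BC11 and H1-2), while 10.2% and 7.05% of all genes were higher. PF-06821497 exceeded CPI-1205 in 1 member, H2BC11, by 0.64, while 3.52% of all genes were higher. As a share of the 43 tested members, valemetostat over CPI-1205 was near the share of all genes. MAK683 over either compound and PF-06821497 over CPI-1205 were near or below theirs. Fitted on the 2 groups alone, these counts were 1 for MAK683 over CPI-1205, 4 for MAK683 over tazemetostat and 0 for PF-06821497 over CPI-1205. H2BC11 was lower with tazemetostat than with PF-06821497, with a log2 difference of -0.61, while 1.84% of all genes were lower. For valemetostat over MAK683 the H1-2 difference was 0.34, with a 95% interval of -0.07 to 0.75, and 0 members passed, beside 0.0182% of all genes higher. Valemetostat over PF-06821497 and MAK683 over PF-06821497 also gave 0 members, while 3.46% and 1.1% of all genes were higher, and tazemetostat over CPI-1205 gave 0 members and 0% of genes. At an unadjusted p under 0.05 these 4 pairs had 2, 6, 5 and 2 of the 43 members in that order, beside 1574, 3817, 2729 and 2265 of all 21958 genes, shares near or above the members'. The 95% interval of the H1-2 difference was -0.28 to 0.54 for MAK683 over PF-06821497 and -0.54 to 0.28 for tazemetostat over CPI-1205. None of these intervals shows that 2 compounds act alike.

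Members that share a promoter region did not always carry the same call. There were 12 divergent pairs with starts within 1000 bases, and both partners were tested in 8. With CPI-0209 both partners rose in 2 pairs, H2BC8 with H2AC8 and H2BC21 with H2AC20. In H2BC13 with H2AC13 neither passed. In the other 5 pairs 1 partner rose. H2AC25 had 2.28 and H2BC26, 234 bases away, 0.57 on the log2 scale. H2BC26 had 3.34, 4.77 and 4.87 CPM in CPI-0209 libraries and 2.76, 2.31 and 3.63 CPM in vehicle libraries, and these overlapped. H2BC11 had 1.59 and H2AC11 0.43, and their 95% intervals, 1.28 to 1.89 and 0.05 to 0.81, were apart. H2BC4 had 1.21 and H2AC6 0.29, with intervals of 0.85 to 1.56 and 0.02 to 0.56. A difference between partners was not itself tested. H2BC17 is in 2 of the 8 pairs, since H2AC17 and H3C12 overlap opposite it.

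**Figure D5:**
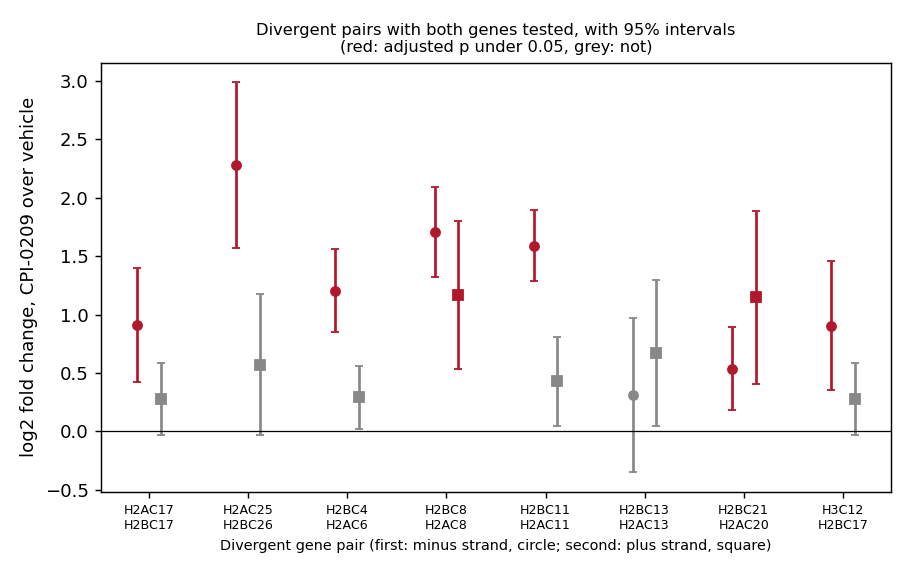
Log2 fold change of CPI-0209 over vehicle with 95% intervals for the 8 divergent pairs with both genes tested (circle, minus strand; square, plus strand; red, edgeR adjusted p under 0.05; grey, not). Both points are red in 2 pairs, 1 point in 5 pairs and none in H2BC13 with H2AC13.

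The counting itself bears on these values. Of the 69 members, 10 had under 10% of their 100-base words found in no other gene, 49 had over 90%, and 14 models overlapped exons of another gene. Among members with over 90% and no overlap, a choice made after seeing the data, 30 were tested. Of these, 18 rose with CPI-0209, 12 with valemetostat, 7 with MAK683, 5 with PF-06821497 and 0 with CPI-1205 and tazemetostat. Over all genes tested, 22.3% rose with CPI-0209, 15% with valemetostat, 10.4% with MAK683, 5.96% with PF-06821497 and 0% with CPI-1205 and tazemetostat. By model, 14 of 20 tested members whose model ran past the stem-loop rose with CPI-0209, 2 of 5 whose model ended at it, and 11 of 18 with none. The median log2 fold changes were 1.08, 0.67 and 1.08 in that order. Reads past the stem-loop and reads before it were not counted apart.

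Genes that make, process or place histones were read from lists chosen by known role. Of 24 genes of histone mRNA synthesis, processing and decay, 1 rose and 6 fell, with a median log2 fold change of -0.25, against -0.02 for all genes tested. Beside the 22.3% of all genes that rose and 18.8% that fell with CPI-0209, the share that fell was near the background and the share that rose was below it. With upper-quartile scaling 2 rose and 3 fell, and with the muscle covariate 0 rose and 10 fell. SLBP, the stem-loop binding protein, fell by 0.33 on the log2 scale (edgeR adjusted p = 0.0128). LSM11, a part of the U7 particle that cuts the message, fell by 0.62, and TUT4 and TUT7, which add uridines to RNA ends, fell by 0.79 and 0.64. NPAT had -0.36 and did not pass (edgeR adjusted p = 0.174). Leaving out vehicle library 3 or CPI-0209 library 2 left 3 that fell, and the number that rose was 0 without CPI-0209 library 2 or vehicle library 2.

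Of 12 replication-independent histone genes, 4 rose and 1 fell with CPI-0209. MACROH2A2, a large H2A variant, rose by 4.41 on the log2 scale, H3-5 by 1.81, H2AZ1 by 0.42 and H2AX by 0.37. MACROH2A2 was very low in vehicle tumours, at 0.293 ± 0.120 CPM, against 6.41 ± 2.10 CPM with CPI-0209. H3-5 spread widely with CPI-0209, at 4.79 ± 3.42 CPM, against 1.31 ± 0.22 CPM with vehicle (SD, n = 3 each). The 1 that fell, H2AZ2 by 0.34, did not pass without any 1 of the 3 CPI-0209 libraries or without vehicle library 1 or 3. Of 18 histone chaperone genes, 1 rose (HIRA, which places H3.3, by 0.27) and 1 fell (RBBP4, a histone-binding protein also in PRC2, by 0.41). HIRA did not pass without CPI-0209 library 2, vehicle library 2 or vehicle library 3, and 2 chaperone genes fell without vehicle library 2. Of 35 S-phase genes, 3 rose and 7 fell, with a median of -0.12. The share that fell was near the 18.8% of all genes, and the share that rose was below the 22.3% of all genes. The balance turned to 7 that rose and 2 that fell with upper-quartile scaling, and to 7 and 3 with a filter of 1 CPM in 3 libraries, while the muscle covariate gave 11 that fell. FEN1, the flap endonuclease, CDC25A, a cell cycle phosphatase, and CDC45, a helicase part, rose by 0.54, 0.55 and 0.35. MCM6, also a helicase part, fell by 0.46. The number that fell was 4 without vehicle library 3 or CPI-0209 library 1.

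Markers of host cells moved with the CPI-0209 group as well. None of the markers listed was at 0 in all 21 libraries. Of 10 tested skeletal muscle markers 5 rose and 1 fell. The summed level of the list was 292 to 1775 CPM in CPI-0209 libraries, against 436 to 514 CPM in vehicle libraries. Library 3 of CPI-0209 had the 1775 CPM. TNNT3, the 1 that fell, made up most of the vehicle sum, at 414 ± 34.7 CPM there and 205 ± 13.6 CPM with CPI-0209. Mean log2 CPM over the tested markers was 4.38, 3.07 and 6.74 in CPI-0209 libraries, against 2.57, -0.61 and 3.38 in vehicle libraries, and these overlapped. Of 6 tested endothelial markers 3 rose and 2 fell, with sums of 34.2 to 45.3 CPM in CPI-0209 libraries against 7.92 to 8.57 CPM in vehicle libraries. PECAM1 made up most of the CPI-0209 sum, at 27.4 ± 4.41 CPM there and 1.99 ± 0.43 CPM with vehicle. CDH5 and VWF were lower with CPI-0209, at means of 0.80 and 1.33 CPM against 1.88 and 3.07 CPM with vehicle. Of 8 fibroblast markers 5 rose and 1 fell, with sums of 1602 to 4253 CPM in CPI-0209 libraries against 1047 to 1719 CPM in vehicle libraries. Of 8 macrophage and granulocyte markers 5 rose and 1 fell, with 151 to 184 CPM in CPI-0209 libraries against 144 to 172 CPM in vehicle libraries, and all 3 tested lymphocyte markers rose, with 6.21 to 7.59 CPM in CPI-0209 libraries against 2.14 to 2.63 CPM in vehicle libraries. Of 7 carcinoma markers 1 rose and 2 fell, with 5498 to 6409 CPM in CPI-0209 libraries against 7900 to 8224 CPM in vehicle libraries. In testis germline genes 1 of 3 tested rose, and in red cell genes 0 of 2 passed. With valemetostat 2 of the 6 endothelial, 3 of the 8 fibroblast and 3 of the 3 lymphocyte markers rose, while 2 endothelial and 1 fibroblast marker fell. With MAK683 2 endothelial, 2 fibroblast and 2 lymphocyte markers rose, and 1 endothelial and 1 fibroblast marker fell. With PF-06821497 1 of each of these lists rose, and 1 endothelial marker fell. The endothelial sums were 20.5 to 34.5 CPM with valemetostat, 25.9 to 30.7 CPM with MAK683 and 12.1 to 17.6 CPM with PF-06821497, all above the vehicle range. PECAM1 alone had means of 19.2, 22.4 and 9.25 CPM in that order, most of each sum. With tazemetostat and CPI-1205 no marker of any list passed. With the muscle markers as a covariate 27 members rose with CPI-0209, and the share of all genes in that fit is not given. This covariate differed in part between the groups, as the means above show. The part of muscle or of the other cell types in the members' rise was not tested. Histone coding sequences are much alike in human and mouse, and whether reads were human or mouse was not examined.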

How the data were processed

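RNA of 21 HT1376 xenograft libraries was measured by RNA-seq (TruSeq RNA v2, paired reads of 150 bases, per the labels' protocols). The deposited values are whole-number counts per gene, 1 file per library. STAR 2.7.3a, RSEM 1.3.1 and hg38 are named in the submitters' processing notes. Not given in the sources used here are the counting program, its strand and multi-mapping settings, the annotation release and whether mouse reads were removed.

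The counts were fitted in edgeR 4.0.16 (R 4.3.3) with a term per group over all 21 libraries, filterByExpr by group, TMM scaling and robust quasi-likelihood tests, two-sided, with Benjamini-Hochberg adjustment over 21958 genes. The fit was tested on simulated data. limma 3.58.1, DESeq2 1.42.0, other filters and scalings, covariates and each library left out were alternatives. A covariate marked libraries whose titles call them resubmitted, and how these fall over the groups is not given here. Library totals ran from 9725690 to 25771778.

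Of the 69 members, 65 were matched by gene ID and 4 by older symbol. The members and lists were chosen with earlier results of these data known. Named genes were up to 8 tested members with the smallest adjusted p per comparison with vehicle, the member with the highest level by length in each family, those with reported polyadenylated transcripts, SLBP, NPAT, up to 4 list genes with the smallest p, and up to 5 members per pair of compounds. Some genes that this rule names are not reported here. Other members and list genes were named after their values were seen. PF-06821497 libraries are numbered in accession order, since title and count column numbers differ. Stem-loops and shared sequence came from GENCODE 29 transcripts.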

Additional observations from a re-analysis of the deposited data

How the results depend on the processing

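Over the named members, 1264 values in the comparisons with vehicle kept their direction and their side of the threshold, 27 newly passed, 42 no longer passed and 9 changed sign. Members higher with CPI-1205 numbered 2 without a filter on low counts, while 0.258% of all 48135 genes fitted rose. With a term for resubmitted libraries they numbered 1, and the share of all genes there is not given. By DESeq2 they numbered 1, with 22 of all genes past the test in either direction. DESeq2 gave no adjusted p for 31 members with CPI-1205, 11 with tazemetostat and 2 with PF-06821497. Fitted on the 2 groups alone, MAK683 exceeded tazemetostat in 4 members and CPI-1205 in 1, and PF-06821497 exceeded CPI-1205 in 0. Leaving out 1 library gave 24 to 29 members higher with CPI-0209 and 8 to 16 with valemetostat. The ranges were 5 to 8 with MAK683, 2 to 10 with PF-06821497 and 0 to 0 with tazemetostat and with CPI-1205. From 0 to 0 were lower with any compound, and 21 to 26 differed among compounds. The shares of all genes with a library left out are not given, here or above.

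For the lists with CPI-0209, no filter gave 0 higher and 3 lower machinery genes, 0 higher chaperone genes and 4 lower S-phase genes. A filter of 1 CPM in 3 libraries gave 0 lower replication-independent histone genes and 7 higher and 3 lower S-phase genes. RLE scaling gave 0 lower replication-independent histone genes and 5 higher S-phase genes, and DESeq2 gave 0 and 7. Upper-quartile scaling moved the median of all genes to 0.12 (members 1.17) and gave 2 higher and 3 lower machinery genes, 0 lower replication-independent histone genes and 7 higher and 2 lower S-phase genes. The muscle covariate gave 0 higher and 10 lower machinery genes, 0 lower replication-independent histone genes, 2 lower chaperone genes and 11 lower S-phase genes. The term for resubmitted libraries and limma-voom each gave 2 lower chaperone genes, and the 2 groups alone gave 2 higher machinery genes. Leaving out 1 library gave 0 to 1 higher and 3 to 5 lower machinery genes, 3 to 4 higher and 0 to 1 lower replication-independent histone genes, 0 to 1 higher and 1 to 2 lower chaperone genes, and 3 to 4 higher and 4 to 7 lower S-phase genes. The causes were not tested.

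With the replicate number as a block, 27, 16, 8, 5, 0 and 0 members rose with CPI-0209, valemetostat, MAK683, PF-06821497, CPI-1205 and tazemetostat, under title and under count column numbers. The shares of all genes in these block fits are not given. Count column numbers gave 0 lower replication-independent histone genes. Same-numbered libraries deviated together (correlation over 0.1) in 17 of 63 pairs by column number and 15 of 63 by title number, so the numbers were not taken as pairing.

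The values that changed sign did so when 1 library was left out. Over the libraries left out, H2BC21 ran from -0.054 (without valemetostat library 3) to 0.168 with valemetostat, from -0.0048 (without vehicle library 1) to 0.158 with MAK683 and from -0.129 (without CPI-1205 library 1) to 0.285 with CPI-1205. With valemetostat it was also at -0.0065 without vehicle library 1. H2BC12 ran from -0.053 (without tazemetostat library 3) to 0.137 with tazemetostat, with -0.048 without vehicle library 3, and from -0.068 (without CPI-1205 library 1) to 0.216 with CPI-1205. H2BC5 ran from -0.010 (without MAK683 library 2) to 0.144 with MAK683 and from -0.061 (without CPI-1205 library 1) to 0.223 with CPI-1205. Counts were too low for the filter in 26 members, and whether depth, low expression or shared sequence underlies this was not tested. Without the filter 67 were tested, and 30 rose with CPI-0209, while 13.8% of all 48135 genes fitted rose.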
